A study of Mus musculus with 13 samples.

Results

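The cytosolic ribosome is built from a large and a small subunit, each an assembly of ribosomal RNA and ribosomal proteins, and nearly every ribosomal protein is encoded by a gene of its own. The genes described here were those with a symbol of the form Rpl or Rps followed by a number, with or without a closing a, l, x or l1, together with Rplp0, Rplp1, Rplp2 and Rpsa. This rule took 83 of the 24015 gene symbols in the table, 51 of the large and 32 of the small subunit, and it used no measured value. It left out a few ribosomal proteins with other names, among them Fau and Rps3a1.

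RNA was measured in mouse haematopoietic stem cells (HSCs) of the strain C57BL/6. Single Vwf+ HSCs, named for the gene of the clotting protein von Willebrand factor, had been transplanted, and recipients were grouped by the blood lineages the one cell made over 16 weeks: P-restricted (PLT-HSC, 3 libraries), PEM-restricted (PEM-HSC, 6 libraries) or multilineage (MUL-HSC, 4 libraries). All groups share the sort phenotype LSK, Flt3-, CD150+, CD48-, CD45.2+ and Gata1-, and each library is a bulk of 100 donor-derived cells. The labels do not state that the libraries of a group came from separate recipients, so p-values below reflect no more than how these libraries scatter, and that scatter may be technical.

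Gene counts per library ran from 16371921 to 41367057. All 10 HSC marker genes examined had counts in every group, and their summed level was 2590 to 3620 counts scaled to 1000000 gene counts per library (CPM) in PLT-HSC, 2160 to 3140 CPM in PEM-HSC and 1590 to 2380 CPM in MUL-HSC libraries. The 9 macrophage markers in the table summed to 52.0 to 209 CPM in PLT-HSC, 51.1 to 346 CPM in PEM-HSC and 19.9 to 37.3 CPM in MUL-HSC, with 7 of 9, 9 of 9 and 7 of 9 having counts. The 10 neutrophil markers summed to 188 to 726 CPM in PLT-HSC, 236 to 679 CPM in PEM-HSC and 278 to 383 CPM in MUL-HSC. Of the 9 T and NK cell markers in the table, just 2 had counts, summing to 157 to 376 CPM in PLT-HSC, 92.5 to 364 CPM in PEM-HSC and 122 to 232 CPM in MUL-HSC, and 7, among them Cd3e and Cd3d, were at 0 in all libraries. The 9 B and plasma cell markers in the table summed to 93.5 to 185 CPM over the 13 libraries, with 4 of them, such as Ms4a1, at 0 in all libraries. Of the 11 erythroid markers 7, among them all globin genes examined, were at 0 in all libraries. In PLT-HSC, PEM-HSC and MUL-HSC 2, 4 and 3 had counts, summing to 7.32 to 23.1, 12.3 to 58.4 and 0.116 to 25.4 CPM. The 10 megakaryocyte markers summed to 133 to 235 CPM in PLT-HSC, 152 to 239 CPM in PEM-HSC and 159 to 345 CPM in MUL-HSC. The 20 mitotic genes summed to 76.4, 184 and 1410 CPM in the PLT-HSC libraries, to a median of 691 CPM in PEM-HSC (241 to 2050) and to a median of 939 CPM in MUL-HSC (251 to 1360). The part of these differences in the results below was not tested.

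In mammals many ribosomal protein mRNAs begin with a 5′ terminal oligopyrimidine tract, a C at the cap followed by an unbroken run of C and T. Through it the kinase mTOR, acting on the RNA-binding protein LARP1, sets how much of the mRNA is translated, so the transcript level alone does not give the amount of protein made. HSCs in mouse marrow are known for a low rate of protein synthesis. Mutations of single ribosomal protein genes, RPS19 first among them, cause Diamond-Blackfan anaemia in humans.

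RefSeq promoter windows of the mouse build GRCm38.p6 were held for 62 of the 83 genes. In 13 of the 62, or 21.0%, a C at an annotated first base was followed by at least 4 bases that are each C or T. The run was read on the gene's strand, and 3.01% of 27025 genes with a window held it. Of 12 translation factors and other genes with a window whose mRNAs are known to start with such a tract, 2 (16.7%) held it. The count thus misses such mRNAs. The letters CCGGAAG, the core bound by ETS factors, stood on either strand within the window of 300 bases in 40.3% of the ribosomal protein genes, in 9.93% of all genes and in 20.4% of the 9427 genes with a window that were also tested below. TATAAA, on either strand, stood in 11.3% of the ribosomal protein genes, in 15.7% of all genes and in 8.53% of the genes tested. The windows below run from 30 bases before to 12 bases from the annotated first base and show the run, its absence and its dependence on the annotation, mostly in genes that the results turn on. Capitals mark the pyrimidine run that starts at the first base. Rps6 (chr4:86857356-86857397, minus strand), Rpl15 (chr14:18270975-18271016, minus) and Rps15a (chr7:118116136-118116177, minus) hold the run.
Rps6: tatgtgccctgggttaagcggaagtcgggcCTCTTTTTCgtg
Rpl15: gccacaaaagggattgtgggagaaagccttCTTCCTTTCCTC
Rps15a: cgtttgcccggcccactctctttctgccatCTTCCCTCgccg
Rps21 (chr2:180257349-180257390, plus) is one of the short genes highest in PLT-HSC, and Rps27 (chr3:90213637-90213678, minus) holds the run although few reads were assigned to it.
Rps21: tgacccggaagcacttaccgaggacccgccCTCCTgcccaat
Rps27: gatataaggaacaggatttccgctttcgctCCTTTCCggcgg
Windows of Rpl37 (chr15:5116583-5116624, plus), Rps28 (chr17:33824551-33824592, minus) and the second copy Rpl22l1 (chr3:28805478-28805519, plus) hold no such run at the annotated base. Rpl27a (chr7:109519165-109519206, plus) has one that starts with T at that base, so it was not counted, which shows how the count depends on where the annotation puts the start.
Rpl37: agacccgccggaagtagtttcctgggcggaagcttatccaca
Rps28: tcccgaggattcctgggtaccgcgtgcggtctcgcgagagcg
Rpl22l1: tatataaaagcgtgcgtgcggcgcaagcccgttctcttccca
Rpl27a: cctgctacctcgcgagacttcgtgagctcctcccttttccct

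Ribosomal protein genes took 2.42% to 3.55% of all gene counts. The share was 2.74%, 3.55% and 3.5% in the PLT-HSC libraries, a mean of 3.26 ± 0.45% (SD, n = 3). It was 2.92%, 3.14%, 2.59%, 3.03%, 3.33% and 2.46% in PEM-HSC, a mean of 2.91 ± 0.33% (n = 6), and 3.32%, 2.84%, 3.21% and 2.42% in MUL-HSC, a mean of 2.95 ± 0.41% (n = 4). PLT-HSC replicates 2 and 3 had the highest shares of the 13 libraries, whereas PLT-HSC replicate 1 lay within the range of both other groups. The difference between the group means was smaller than the SD within the PLT-HSC group. In bulk libraries, fewer cells of a type and less RNA per cell cannot be told apart.

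The counts of the large subunit genes stood at 1.43, 1.40 and 1.39 times those of the small subunit genes in the PLT-HSC libraries, a mean of 1.404 ± 0.018 (SD, n = 3). The ratio averaged 1.476 ± 0.052 in PEM-HSC (n = 6, from 1.41 to 1.54) and 1.438 ± 0.037 in MUL-HSC (n = 4, from 1.41 to 1.49). The ranges of PLT-HSC and PEM-HSC overlapped through PEM-HSC replicate 5, at 1.41. The 3 libraries with the highest ratios, PEM-HSC replicates 3 and 6 and MUL-HSC replicate 4, were also those with the lowest ribosomal protein share.

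**Figure D1:**
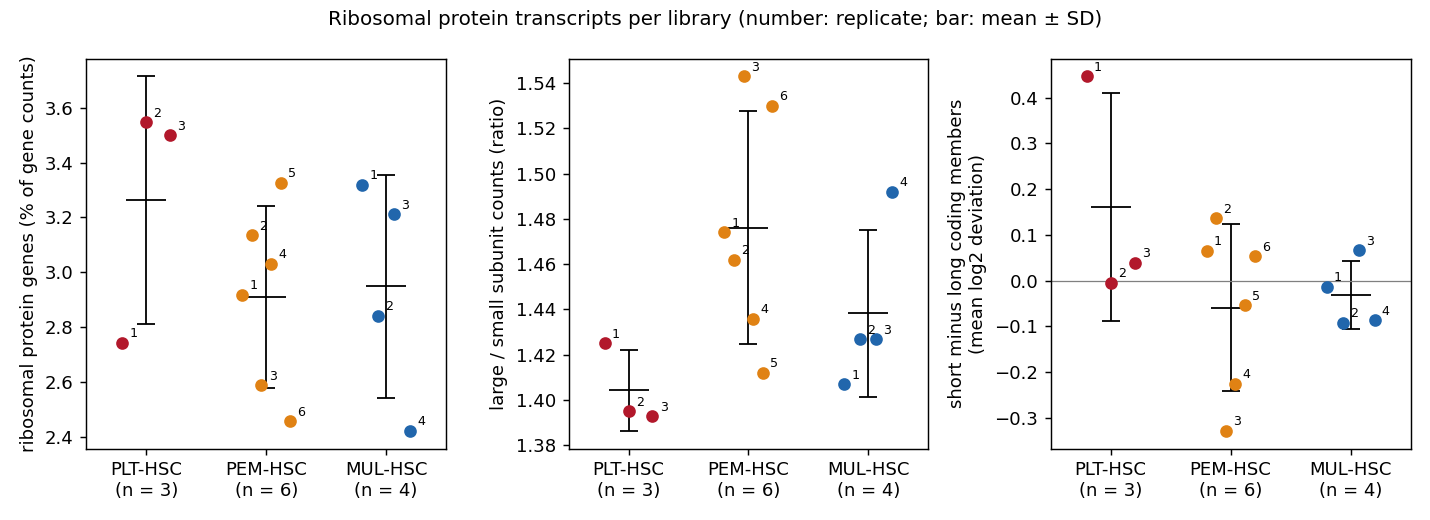
Ribosomal protein transcripts in each library, as the share of all gene counts (left, %), the ratio of large to small subunit counts (middle) and the mean log2 deviation of short minus long genes (right); points are libraries with their replicate number, and the cross with bars is the group mean ± SD. PLT-HSC replicate 1 stands at 0.45 in the right plot and below the other PLT-HSC libraries in the left one, at 2.74%.

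By counts the leading genes included Rpl4, with a mean of 1760 CPM over the 13 libraries, Rplp0 with 1550 CPM, Rpl13 with 1440 CPM and Rps3 with 1340 CPM. Rplp0 carries the stalk of the large subunit on which translation factors act, and Rps3 lines the channel through which mRNA enters the small subunit. Since fragments of a cDNA scale with its length, levels of different genes were compared per kilobase of coding sequence. On that scale Rpl41, which encodes the smallest ribosomal protein, led with 2660 CPM per kb. Rpl13 and Rps14 followed with 2270 CPM per kb each, and Rps3 stood at 1840 CPM per kb. The scale divides by coding bases alone, although counts can also come from untranslated parts of the mRNA. It can thus raise genes with few coding bases, such as Rpl41 with 75, which ranked 48 by CPM. Counts per coding length differed between genes whose products mostly enter the ribosome as single copies.

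Ribosomal protein genes were among the steadier genes between replicates. Over the 77 with a mean of at least 10 CPM, the median SD within groups was 0.26 on the scale of log2(CPM + 1). It was 0.60 in 8579 other genes of the same CPM range, and 76 of the 77 lay under that median. The other genes shared the limits of that range and were not matched by level within it. The steadiest were Rpl5, with an SD of 0.14, Rpl3, with 0.15, and Rpl7 and Rpl7l1, with 0.18 each. Rpl5, which with RPL11 and the 5S RNA binds MDM2 in stressed cells, stood at 485, 485 and 489 CPM in the PLT-HSC libraries, at 360 to 494 CPM over the PEM-HSC libraries with a mean of 428 ± 45.4 CPM (SD, n = 6), and at 532, 489, 439 and 423 CPM in those of MUL-HSC. The most variable were Rps4l with an SD of 2.15, Rpsa with 0.41, Rpl22l1 with 0.37 and Rps27l with 0.35. Rpsa, also known as the laminin receptor, stood at 350, 551 and 807 CPM in PLT-HSC, so the range within that group spanned those of the other groups.

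In PLT-HSC against MUL-HSC, 67 of the 79 tested ribosomal protein genes had a positive fold change, but none passed the test. The median log2 fold change was 0.14, with 0.15 over the 47 large and 0.12 over the 32 small subunit genes, beside 0.04 over all 12536 genes tested. By edgeR's quasi-likelihood test with Benjamini-Hochberg adjustment over all genes, 0 of the 79 were called at an adjusted p under 0.05, the lowest being 0.646, while 6 of all genes were called (0.0479%). DESeq2 also called 0 of the 79, while it called 249 of all genes (2.01%). At an unadjusted p under 0.05, 4 of the 79 were higher and 0 lower, against 4.11% of all genes higher and 3.26% lower. For 66 of the 79 the 95% interval of the fold change lay within 1 log2 unit of 0, as it did for 21.1% of all genes.

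Rps28, a protein of the small subunit head near the mRNA exit, had the smallest p. It stood at 160, 89.1 and 107 CPM in the PLT-HSC libraries, against 86.6, 63.3, 79.7 and 62.8 CPM in MUL-HSC. No library overlapped between these groups, yet the lowest PLT-HSC library was close to the highest MUL-HSC one, and the fold change was 0.69 on the log2 scale (SE 0.30, adjusted p = 0.646 by edgeR). Without PLT-HSC replicate 1 it was 0.38. Rpl37, a small zinc-binding protein of the large subunit, stood at 282, 219 and 195 CPM in the PLT-HSC libraries, against 182, 127, 176 and 132 CPM in MUL-HSC, with a fold change of 0.59 on the log2 scale (SE 0.26, adjusted p = 0.647 by edgeR). Rps29, also a zinc-binding protein and one mutated in some families with Diamond-Blackfan anaemia, stood at 181, 118 and 133 CPM in the PLT-HSC libraries, against 123, 81.0, 98.2 and 81.5 CPM in MUL-HSC. Its groups overlapped through PLT-HSC replicate 2 and MUL-HSC replicate 1. For Rps28, Rpl37 and Rps29 alike, PLT-HSC replicate 1 was the highest of the 13 libraries. At the other end Rpl34, a protein of the large subunit, stood at 4.93, 8.95 and 9.50 CPM in the PLT-HSC libraries, against 11.9, 15.2, 12.6 and 9.65 CPM in MUL-HSC, a log2 fold change of -0.68 with an SE of 0.78.

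The CPM of 14 of the 79 genes were higher in every PLT-HSC than in every MUL-HSC library (3.75% of all genes tested), and 1, Rpl34, was lower in every one (3.04%). Of the 14, 9 belong to the large and 5 to the small subunit. They were Rpl3, Rpl23, Rpl31, Rpl35, Rpl36a, Rpl37, Rpl37a, Rpl39, Rpl41, Rps15a, Rps20, Rps21, Rps26 and Rps28. Apart from Rpl3, a core protein at the peptidyl transferase centre, all have a coding sequence under 462 bases. Without PLT-HSC replicate 1 the count was 29, 16 of them short and 13 long, with 7% of all genes.

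In PLT-HSC against PEM-HSC, 75 of the 79 genes had a positive fold change, including all 32 of the small subunit, and again none passed the test. The median log2 fold change was 0.24, with 0.21 over the large and 0.30 over the small subunit genes, beside 0.02 over all genes. By edgeR 0 of the 79 genes and 0 of all genes (0%) were called at an adjusted p under 0.05, and DESeq2 called 0 of the 79 and 93 of all genes (0.752%). At an unadjusted p under 0.05, 8 were higher and 0 lower (1.58% and 2.15% of all genes). The CPM of 10 genes were higher in every PLT-HSC than in every PEM-HSC library (1.1% of all genes), 8 of the small and 2 of the large subunit, and 0 were lower in every one (1.06%). Among the 10 were Rpl37a, Rpl39, Rps12, Rps13, Rps15a, Rps20, Rps21, Rps26 and Rps29, and all 10 have a coding sequence under 462 bases. Without PLT-HSC replicate 1 the count was 32, with 3.37% of all genes. This comparison and the one above share the PLT-HSC libraries, so their values are not independent.

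Rps20, a protein of the small subunit head, stood at 276, 309 and 292 CPM in PLT-HSC, at 154 to 265 CPM in PEM-HSC with a mean of 213 ± 42.4 CPM (SD, n = 6), and at 234, 206, 230 and 169 CPM over the MUL-HSC libraries. Every PLT-HSC library lay above every other one. Its log2 fold change was 0.47 (SE 0.20) against PEM-HSC and 0.47 (SE 0.22) against MUL-HSC, at edgeR adjusted p-values of 1.0 and 0.676. Rps26, which contacts mRNA at the exit channel, stood at 168, 175 and 173 CPM in PLT-HSC, at 98.1 to 168 CPM in PEM-HSC and at 102 to 152 CPM in MUL-HSC. Here PLT-HSC replicate 1 and the highest PEM-HSC library were level after rounding. Rps21 stood at 81.0, 67.9 and 79.4 CPM in PLT-HSC, at 34.9 to 63.8 CPM in PEM-HSC and at 42.1 to 61.9 CPM in MUL-HSC, so every PLT-HSC library lay above every library of the other groups, which overlapped each other.

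In PEM-HSC against MUL-HSC, 60 of the 79 genes had a negative fold change, with a median log2 fold change of -0.06 beside 0.01 over all genes. By edgeR 0 were called, against 0.00798% of all genes, and DESeq2 called 0 of the 79 and 175 of all genes (1.42%). At an unadjusted p under 0.05, 0 were higher and 0 lower, against 3.84% and 2.09% of all genes. For 75 of the 79 the 95% interval lay within 1 log2 unit of 0, as it did for 29.3% of all genes. Rpl3 was the 1 gene higher in every PEM-HSC library (0.862% of all genes), and 0 were lower in every one (0.63%). Rpl3 stood at 621 to 722 CPM with a mean of 674 ± 42.7 CPM (SD, n = 6), against 608, 590, 598 and 555 CPM in MUL-HSC. Its log2 fold change was 0.17 (SE 0.13, adjusted p = 0.999 by edgeR). Rpl22, an RNA-binding protein that is needed for mouse alpha-beta T cell development, had the smallest p, at 115 ± 12.1 CPM in PEM-HSC (n = 6) and 144 ± 23.6 CPM in MUL-HSC (n = 4), with a fold change of -0.35 on the log2 scale (SE 0.19, adjusted p = 0.97 by edgeR), or -0.22 without MUL-HSC replicate 3.

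The mean CPM was highest in PLT-HSC for 68 of the 79 genes (86.1%, beside 38.3% of all genes) and lowest in PEM-HSC for 52 (65.8%, beside 27.5%). Since ribosomal protein genes move together between libraries, these shares rest on few libraries. The mean log2 deviation of the genes from their own means ran from -0.33 in PEM-HSC replicate 3 and in MUL-HSC replicate 4 to 0.27 in PLT-HSC replicate 2. Without PLT-HSC replicate 2 the median log2 fold change against MUL-HSC was -0.00375, and against PEM-HSC it was 0.10. Without PLT-HSC replicate 1 the median against MUL-HSC was 0.25. Leaving out MUL-HSC replicate 1, 3 or 4 brought it to 0.23, 0.22 or 0.04, and with the same libraries left out the median of PEM-HSC against MUL-HSC was 0.02, 0.00159 or -0.16. Leaving out PEM-HSC replicate 1, 2 or 5 brought PEM-HSC against MUL-HSC to -0.09, -0.10 or -0.10, and leaving out replicate 3 or 6 to -0.02 or -0.01.

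**Figure D2:**
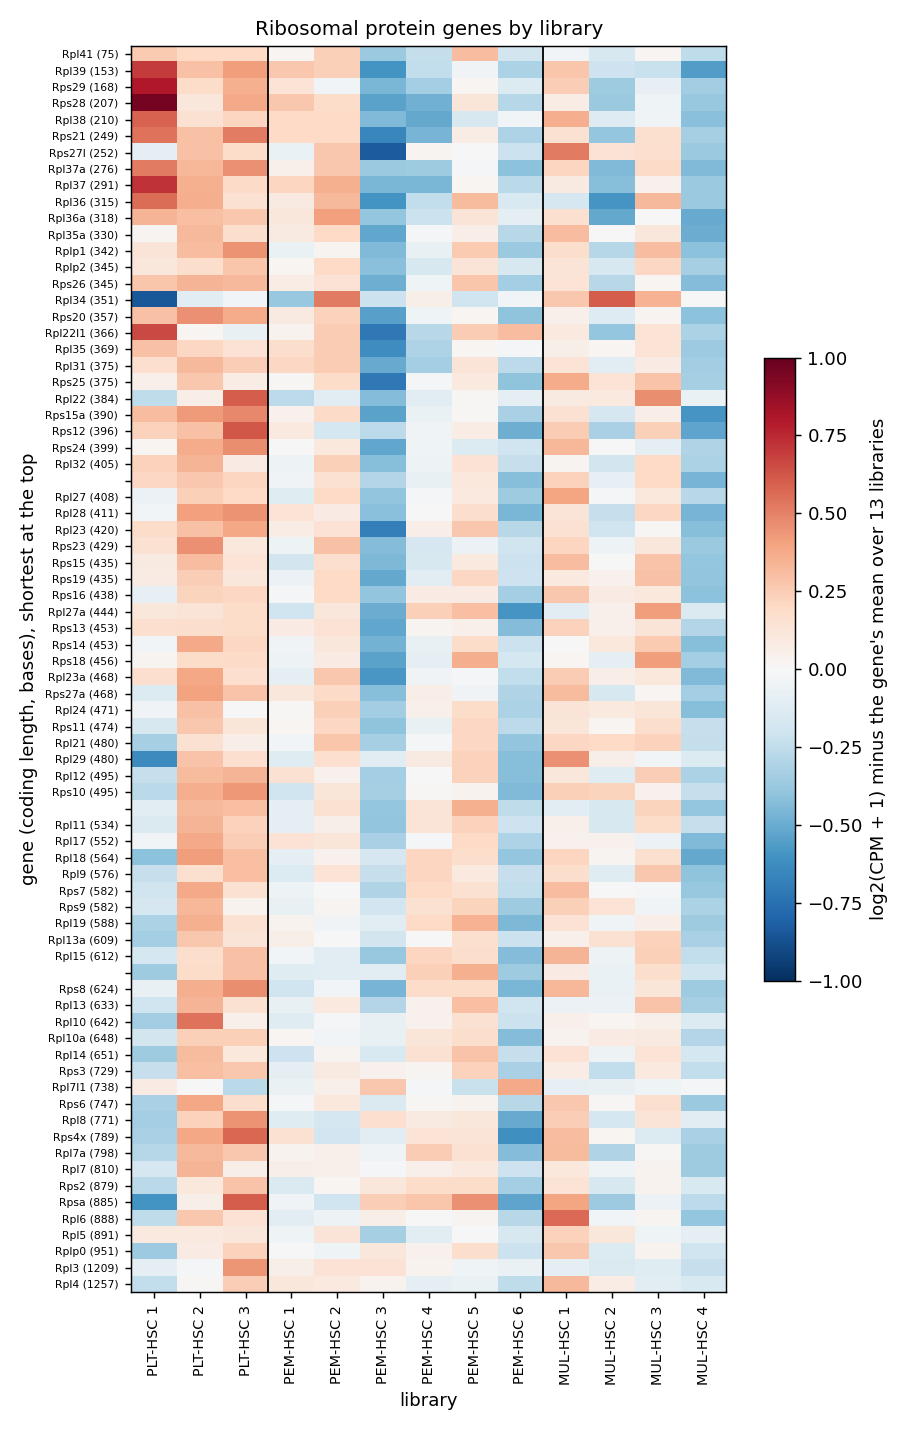
Deviation of each ribosomal protein gene from its own mean over the 13 libraries, on the scale of log2(CPM + 1), for the 76 genes with at least 10 CPM and a coding length; rows run from the shortest coding sequence (75 bases) to the longest (1257 bases), and columns are the libraries of PLT-HSC, PEM-HSC and MUL-HSC. In PLT-HSC replicate 1 the short genes are high and the long ones low, in PEM-HSC replicate 3 the short genes are lowest, and in MUL-HSC replicate 4 nearly all are low.

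The members differed among themselves by length. The 76 genes with at least 10 CPM and a coding sequence were split at the median of 462 bases into 38 short and 38 long ones. In PLT-HSC replicate 1 the short genes stood 0.45 log2 units above the long ones, while in PLT-HSC replicates 2 and 3 this difference was -0.00436 and 0.04. In PEM-HSC it was -0.33 in replicate 3 and -0.23 in replicate 4, and between -0.05 and 0.14 in the other libraries of that group. In MUL-HSC it ran from -0.09 to 0.07. Short genes made up 32.4% of the ribosomal protein counts in PLT-HSC replicate 1 and 21.6% in PEM-HSC replicate 3, with the other 11 libraries between 24.1% and 28.3%. Other genes of the same CPM range and the same length classes did not show this in PLT-HSC replicate 1, where their short members stood at -0.17 relative to their long ones. In PEM-HSC replicate 3 they stood at -0.31.

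The fold changes split in the same way. In PLT-HSC against MUL-HSC the median log2 fold change was 0.28 over the short and 0.11 over the long ribosomal protein genes, and in PLT-HSC against PEM-HSC they were 0.33 and 0.14. Among other genes these medians were -0.12 and -0.08 against MUL-HSC, and 0.02 and -0.06 against PEM-HSC. In PEM-HSC against MUL-HSC the short and long ribosomal protein genes stood at -0.08 and -0.05. Without PLT-HSC replicate 1 the short and long genes were at 0.27 and 0.24 against MUL-HSC and at 0.32 and 0.25 against PEM-HSC, so gaps of 0.173 and 0.186 came to 0.0215 and 0.0732. Between the 25 shortest and the 25 longest genes the gaps were 0.251 and 0.268 with all libraries, and 0.141 and 0.0902 without that one. With any 1 library left out, the median of the short genes lay between 0.174 and 0.364 against MUL-HSC and between 0.233 and 0.385 against PEM-HSC. The median of the long genes lay between -0.0766 and 0.244 against MUL-HSC and between -0.0463 and 0.249 against PEM-HSC, and was negative without PLT-HSC replicate 2. The 12 genes at 10 CPM or more with a pyrimidine run at the annotated start had a median of 0.18 in PLT-HSC against MUL-HSC. The 45 without one had 0.12. Since the scan misses mRNAs known to start with such a tract, the 45 can include genes that have one.

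**Figure D3:**
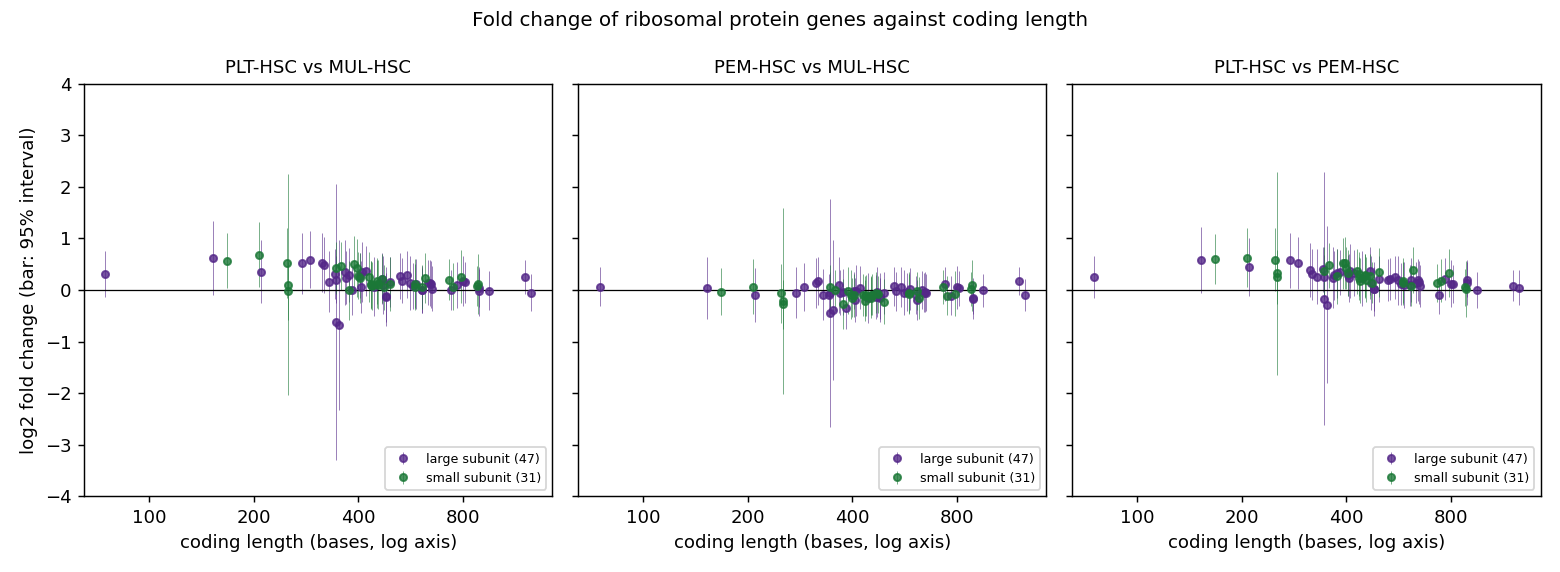
Log2 fold change of the 78 tested ribosomal protein genes with a coding sequence against coding length (bases, log axis) in the 3 comparisons; points are genes, coloured by subunit, and bars are 95% intervals of the edgeR fit. Short genes lie highest in both comparisons of PLT-HSC, up to 0.69 for Rps28, while in PEM-HSC against MUL-HSC points lie along 0.

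Several ribosomal protein genes have a second copy that takes the place of the first in some tissues. Rpl3l of muscle and heart and Rpl39l, known from testis, had 0 counts in all 13 libraries, and Rpl10l, which stands in for the X-linked Rpl10 in male germ cells, had 1 count in MUL-HSC replicate 2 and 3 counts in MUL-HSC replicate 4. A count of 0 allows up to 3 counts per library, or 0.0725 to 0.183 CPM, and covers counting error only.

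Other second copies and relatives were abundant. Rpl22l1, the paralogue of Rpl22, made up 57.6%, 41.1% and 31.0% of the counts of the pair in PLT-HSC, 37.2% to 49.0% with a median of 46.5% in PEM-HSC, and 33.9% to 42.0% with a median of 37.0% in MUL-HSC. The PLT-HSC libraries spanned the ranges of both other groups, and replicate 1 was the highest of all. Rpl22l1 stood at 147, 94.3 and 87.9 CPM and Rpl22 at 108, 135 and 196 CPM in the PLT-HSC libraries. Rpl7l1, a relative of Rpl7, made up 26.6% to 35.2% of the pair with Rpl7 in the libraries of PLT-HSC. The share was 26.8% to 40.8% in those of PEM-HSC and 28.8% to 36.8% in those of MUL-HSC. Whether Rpl7l1 takes the place of Rpl7 in ribosomes was not tested. Rps27l, a target of p53, took 93.9% to 99.1% of the pair with Rps27 in the 13 libraries, a share that depends on how reads of Rps27 were assigned. Rps4l, annotated as a transcribed processed pseudogene in GENCODE M21, varied most between libraries. It stood at 13.4, 22.2 and 16.4 CPM in PLT-HSC, at 0.0357, 9.78, 5.80, 0, 0 and 15.5 CPM in PEM-HSC, and at 60.4, 20.8, 0 and 0.0242 CPM over the MUL-HSC libraries. All 3 PLT-HSC libraries had it, while 3 of the 6 PEM-HSC and 2 of the 4 MUL-HSC libraries were at or under 3 counts, and its fold changes had SEs of 1.75 to 2.09.

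**Figure D4:**
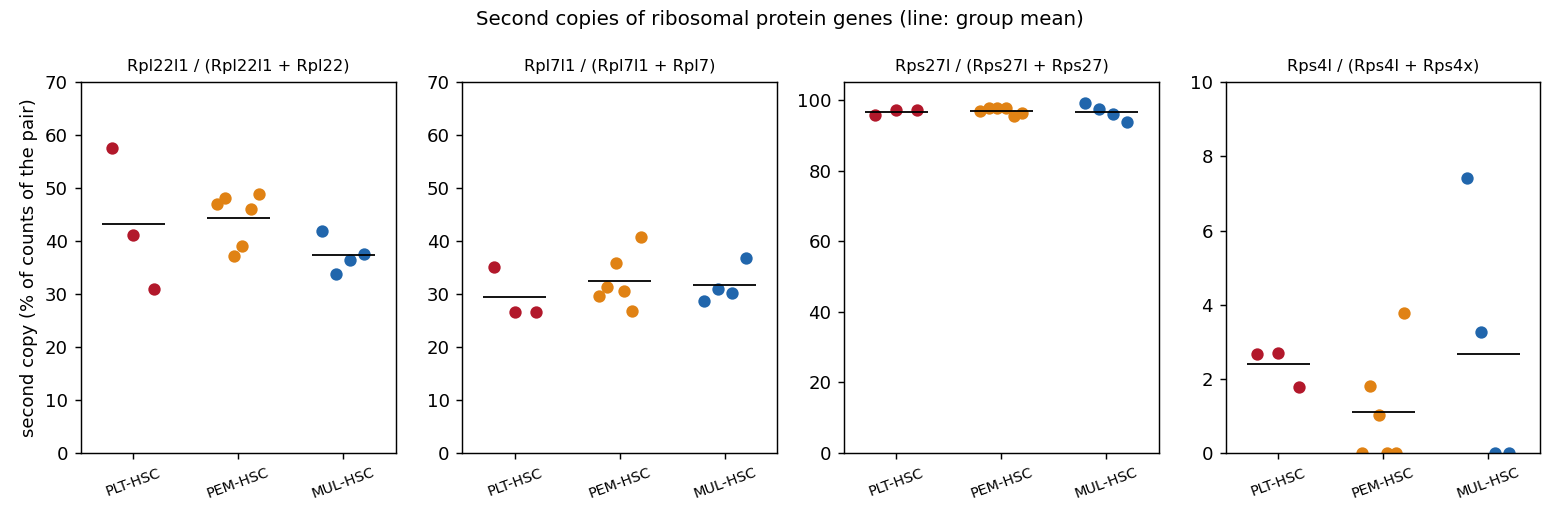
Share of the second copy, or of the relative Rpl7l1, in the summed counts of a pair (%), for Rpl22l1, Rpl7l1, Rps27l and Rps4l. Points are libraries and lines are group means, and each plot has its own scale. Rpl22l1 is highest in PLT-HSC replicate 1, at 57.6%, and Rps4l in MUL-HSC replicate 1, at 7.41%.

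A few genes of proteins that ribosomes of every cell contain had low values. Rpl26 had 1 count in all 13 libraries, in PEM-HSC replicate 6, and did not pass the filter on low counts. Rpl30, with 56 to 180 counts per library, averaged 4.03 CPM and Rps27, with 58 to 428 counts, 6.73 CPM, and per length Rpl30, Rps27 and Rpl34 stood at 11.7, 26.7 and 28.5 CPM per kb. Ribosomal protein genes have many processed pseudogenes, and reads that fit several places are often discarded or split. In GENCODE M21, 79 of the 82 members with a coding sequence shared at least 1 window of 50 bases with another annotated gene, and for 29 every window was shared. Those 29 had a median of 476 CPM per kb, the 38 with at least 50% shared had 560 CPM per kb and the 15 with less had 814 CPM per kb. Rpl26 shared 87.3% of its windows, Rpl30 83.1%, Rpl34 72.2% and Rps27 100%, and other genes with every window shared, such as Rpl13, stood among the highest. Where reads were split between such copies, the level of a single gene is uncertain. The windows come from GRCm38, whereas the counts were made on mm9 with an annotation that is not given. The cause of the low values was not tested.

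**Figure D5:**
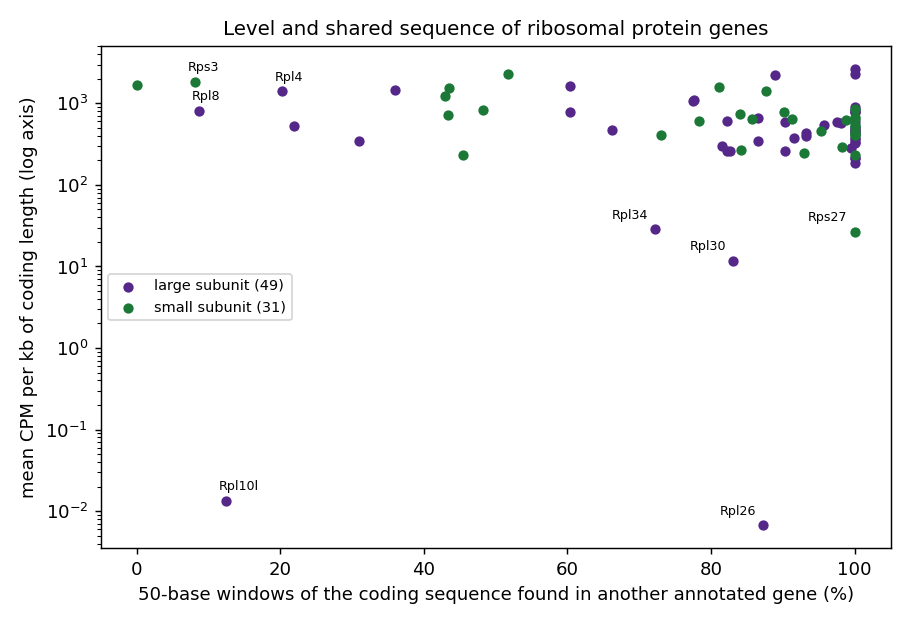
Mean level over the 13 libraries (CPM per kb of coding length, log axis) against the share of 50-base windows of the coding sequence that another annotated gene holds (%); points are genes with at least 1 count and a coding sequence, coloured by subunit. Rpl26, Rpl30, Rpl34 and Rps27 lie far below the other widely used genes, at 72.2% to 100% shared, while others with as many shared windows are not low.

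Rps19, the gene most often mutated in Diamond-Blackfan anaemia, stood at 765 ± 45.3 CPM in the PLT-HSC libraries (SD, n = 3), 662 ± 121 CPM in PEM-HSC (n = 6) and 705 ± 134 CPM in MUL-HSC (n = 4). Rps24 stood at 291 ± 45.3, 218 ± 31.2 and 238 ± 44.9 CPM in the same groups. Rpl11 stood at 284 ± 48.4 CPM in PLT-HSC, 249 ± 39.5 CPM in PEM-HSC and 249 ± 33.3 CPM in MUL-HSC. For Rpl35a the values were 96.0 ± 10.1, 81.3 ± 14.4 and 85.2 ± 18.9 CPM. Rpl38, which in mice acts on translation of Hox mRNAs, stood at 97.0 ± 16.9, 71.5 ± 15.1 and 75.2 ± 17.5 CPM. For each of these the mean was highest in PLT-HSC, none was called, and each overlapped between PLT-HSC and PEM-HSC.

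Among genes that act with the ribosomal proteins edgeR called 0 in any of the lists below in the 3 comparisons. Of 17 translation factors and other genes whose mRNAs are known to start with a pyrimidine tract, 10 were positive in PLT-HSC against MUL-HSC and 13 in PLT-HSC against PEM-HSC, with medians of 0.04 and 0.15. Eef1a1, the elongation factor that brings tRNA to the ribosome, averaged 3150 ± 604 CPM in PLT-HSC, 2710 ± 308 CPM in PEM-HSC and 2640 ± 377 CPM in MUL-HSC. Of the 55 assembly factors, 34 were negative in PLT-HSC against MUL-HSC, with a median of -0.10, and 3 were lower at an unadjusted p under 0.05, beside 3.26% of all genes. Among the 55, Dkc1, the pseudouridine synthase of ribosomal RNA, averaged 312 CPM in PLT-HSC and 466 CPM in MUL-HSC (-0.59 on the log2 scale, SE 0.21, adjusted p = 0.6 by edgeR). Eif6, which keeps the subunits apart until assembly ends, averaged 176 CPM in PLT-HSC and 262 CPM in MUL-HSC (-0.59 on the log2 scale, SE 0.26, adjusted p = 0.646 by edgeR). Of the 12 tested genes of RNA polymerase I transcription 8 were negative, with a median of -0.16. Of the 12 tested genes of the p53 response to free ribosomal proteins and of the rescue of stalled ribosomes, 6 were positive and 6 negative, with a median of 0.09.

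Among the 20 genes that control ribosome production, Mycn had the highest and Myc the lowest log2 fold change of PLT-HSC over MUL-HSC. Mycn averaged 444 CPM in the PLT-HSC libraries, against 154 CPM in MUL-HSC, with no overlap, a log2 fold change of 1.52 (SE 0.43) and an edgeR adjusted p of 0.347. In PEM-HSC it averaged 381 CPM, a fold change of 1.30 on the log2 scale (SE 0.38, adjusted p = 0.595 by edgeR) against MUL-HSC. DESeq2 gave adjusted p-values of 0.0203 and 0.0229 for these comparisons. Without MUL-HSC replicate 3 the edgeR adjusted p in PLT-HSC against MUL-HSC was 0.0494, at a log2 fold change of 2.15. Leaving out any other single library gave edgeR adjusted p-values of 0.376 to 0.737. With the replicate number as a block it was 0.871, and with only the 2 groups fitted 0.815. Myc averaged 236 CPM in the PLT-HSC libraries, against 458 CPM in MUL-HSC, also with no overlap, a log2 fold change of -0.99 (SE 0.33) and an edgeR adjusted p of 0.536. Maf1, a repressor of RNA polymerase III, was higher in every PEM-HSC than in every MUL-HSC library, with means of 378 and 293 CPM, a log2 fold change of 0.35 (SE 0.14) and an edgeR adjusted p of 0.768.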

How the data were processed

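Polyadenylated RNA of 100 sorted cells per library was converted with Smart-seq+ and Nextera XT, per the labels' protocols. The submitters' processing notes name featureCounts, STAR, Trimmomatic and FastQC and the mouse build mm9. Versions, annotation, strand mode and the treatment of reads with several places are not given in the sources used here. In the deposited table are whole-number counts per gene symbol that the authors had not normalized. Without molecular identifiers, counts include PCR copies, and floors cover counting error only. Library sizes and tests exclude the 92 spike-in rows.

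The 13 libraries were fitted together, a term per group, with edgeR 4.0.16 in R 4.3.3 (filterByExpr, 12536 genes; TMM; robust quasi-likelihood; Benjamini-Hochberg over all genes tested). The fit was also run on simulated data, and no outcome of that run is given here. CPM are counts scaled to 1000000 gene counts per library, with no TMM factor, and groups were compared for overlap on them. DESeq2 1.42.0, another scaling, no filter on low counts, a replicate block and each library left out were alternatives. Coding lengths and shared windows came from GENCODE M21 and promoters from RefSeq, both of GRCm38, so no coordinate of one build was used in the other. Replicates differed beyond sampling noise (lowest chi-square per degree of freedom 163). The members, gene lists and tests were chosen with earlier results of these data known. Named genes were the 5 of each subunit with the most CPM and the 3 with the smallest p per comparison and direction. Second copies and their partners, disease-linked genes, the 4 most and the 4 least variable, and those under the filter were also named. From each other list at most the 2 with the smallest p per comparison were named, and from some lists none. Eef1a1, Rps3a1, Rpl15 and Rpl27a were named outside this rule. The length split, Rps21, Rpl37a, Rpl39 and other genes without overlap were chosen after their values were seen. Some genes that this rule takes are not reported here by name.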

Additional observations from a re-analysis of the deposited data

Results flagged for a closer look

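Rpl21 stood at 331 CPM in MUL-HSC replicate 4, far from the other MUL-HSC libraries, of which the nearest was at 447 CPM. The gap took up 0.913 of the group's range, above Dixon's 95% critical value of 0.829 for 4 samples. Of 86 groups of values examined in this way this was the 1 that stood out, a smaller share than the about 1 in 20 that chance gives. The same library had the lowest ribosomal protein share and the most gene counts of the 13 libraries.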

How the results depend on the processing

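No ribosomal protein gene was called under any alternative, among them DESeq2's size factors, DESeq2's test, no filter on low counts and each library left out. Every median, share and ratio moved by less than the spread of 0.23 log2 units, or its SD, under the alternatives. That spread is larger in size than the medians of PLT-HSC and PEM-HSC against MUL-HSC, at 0.138 and -0.0567. A change of sign could therefore stay within it. Leaving out each library in turn gave medians from -0.00375 to 0.247 in PLT-HSC against MUL-HSC, from 0.103 to 0.297 in PLT-HSC against PEM-HSC and from -0.161 to 0.0234 in PEM-HSC against MUL-HSC, so of these 3 medians the one of PLT-HSC against PEM-HSC kept its sign in all 13 settings. The difference in the ribosomal protein share ran from 0.138 to 0.574, 0.212 to 0.614 and -0.215 to 0.0838 percentage points in the same order. Without PLT-HSC replicate 1, chosen after seeing the data, 29 ribosomal protein genes in place of 14 were higher with no overlap against MUL-HSC. Over all genes that share was 7% in place of 3.75%. Against PEM-HSC there were 32 in place of 10, with 3.37% in place of 1.1% of all genes. Such a count cannot fall when a library is left out. Splitting by length into the 25 shortest and the 25 longest genes gave gaps of 0.251, 0.268 and 0.00112 in place of 0.173, 0.186 and -0.0257. No pairing by replicate number was seen: the 10 pairs with the same number correlated at -0.132 to 0.0482. Pairs with different numbers correlated at -0.0941 to 0.15. Such correlations cannot exclude a recipient or batch shared between libraries. With the number as a block the medians were 0.0866, 0.191 and -0.0654 in the same order, with 0 calls. Some genes changed sign when 1 library was left out. Against MUL-HSC the fold change of Eef2 in PLT-HSC ran from -0.234, without PLT-HSC replicate 3, to 0.78. Against PEM-HSC Rpl7l1 ran from -0.207 to 0.0358 and Pabpc1 from -0.013 to 0.566, each of opposite sign without PLT-HSC replicate 3; the cause was not tested. For Rpl26, with 1 count in all, no comparison could be made.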

Other observations

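The mitochondrial ribosome has its own proteins, encoded in the nucleus by genes with the symbols Mrpl and Mrps, which were looked at after the values of the cytosolic ones were seen. Of 77 tested, 61 were lower by fold change in PLT-HSC than in MUL-HSC, with a median of -0.17, and 54 were lower in PEM-HSC than in MUL-HSC, with a median of -0.13, while the cytosolic genes had medians of 0.14 and -0.06. In PLT-HSC against PEM-HSC 46 were negative, with a median of -0.03. None was called in these comparisons, and the lowest edgeR adjusted p was 0.491. For 84.4% of the mitochondrial genes the 95% interval in PLT-HSC against MUL-HSC lay within 1 log2 unit of 0, beside 83.5% of the cytosolic ones. In PLT-HSC against PEM-HSC these shares were 94.8% and 83.5%, and in PEM-HSC against MUL-HSC 94.8% and 94.9%.

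Of 5 tested genes of ribosomal proteins with other symbols, 3 were higher by fold change and 2 lower in PLT-HSC than in MUL-HSC. All 5 were higher in PLT-HSC than in PEM-HSC, and edgeR called 0. Rps3a1 averaged 866 ± 153 CPM in PLT-HSC (SD, n = 3), 788 ± 92.3 CPM in PEM-HSC (n = 6) and 803 ± 151 CPM in MUL-HSC (n = 4), and Fau averaged 126 ± 8.12, 107 ± 18.8 and 111 ± 21.5 CPM in the same groups. Rpl36al, a second copy of Rpl36a, averaged 88.7 CPM in PLT-HSC, 75.6 CPM in PEM-HSC and 92.3 CPM in MUL-HSC. It made up 36.9% to 41.9% of the counts of that pair in the PLT-HSC libraries. The share was 35.9% to 46.0% in those of PEM-HSC and 43.4% to 56.0% in those of MUL-HSC. The ranges of PLT-HSC and MUL-HSC did not overlap.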
